A study of Homo sapiens with 9 samples.

Results

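The nuclear genes that encode subunits of respiratory complexes II, III, IV and V, together with cytochrome c, were followed in A673 cells after transfection of siRNA against LRWD1. A fixed list of 39 gene symbols defined the set, and 39 of the 39 were found among the 23368 symbols of the count table. The list holds 4 genes of complex II, 9 of complex III, 10 of complex IV, 15 of complex V and the gene of cytochrome c. The rule itself uses no expression value, but the list was chosen with earlier results of these data known. The shares below therefore describe the list and do not test it. All 39 had enough counts to be tested, among 13648 tested genes.

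Complex II (succinate dehydrogenase) passes electrons from succinate to ubiquinone, complex III moves them on to cytochrome c, and complex IV (cytochrome c oxidase) hands them to oxygen. Complexes III and IV pump protons out of the mitochondrial matrix, and complex V (the ATP synthase) lets them return through its rotor to make ATP. Complexes III, IV and V also contain subunits encoded by mitochondrial DNA, so their assembly draws on both genomes, whereas complex II is wholly nuclear encoded.

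A673 is an established Ewing sarcoma line carrying the EWS-FLI1 fusion. The 3 groups of 3 libraries were cells given siLRWD1-5, cells given siLRWD1-6 and cells given a scrambled siRNA, each at 13 nM by reverse transfection with siLentFect, with RNA taken at 48 h. All groups shared the same line and a medium with Zeocin and blasticidine S, and RNA came from 3 independent experiments. LRWD1 encodes a partner of the origin recognition complex, and a screen for genes that Ewing sarcoma cells need was the setting of the study. LRWD1 averaged 10.8 ± 0.50 CPM with siLRWD1-5, 7.74 ± 1.1 CPM with siLRWD1-6 and 51.0 ± 3.1 CPM with scrambled siRNA (SD, n = 3 each), where CPM is the read count relative to the TMM-scaled library total.

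Library totals lay between 11971179 and 15674452 counts. Scrambled library 2 stood apart from its group over all genes. Over the 39 members its median log2 difference from the other scrambled libraries was 0.07, with a range of -0.22 to 0.26. The median of that difference over all tested genes was 0.02. Of 8 Ewing sarcoma markers, 7 were well expressed, whereas CD99 had only 0 to 50 counts per library. The cause of these low CD99 counts was not tested, so they do not show that the cells lack CD99. The summed CPM of these markers ranged from 1908 to 2230 with siLRWD1-5, from 2367 to 2620 with siLRWD1-6 and from 2661 to 3476 with scrambled siRNA. CCND1 alone had 1490 to 2830 CPM over the libraries, so it dominates these sums. Of 7 tested markers, 6 were called lower with siLRWD1-5 (85.7%, beside 20.3% of all tested genes). With siLRWD1-6, 1 was called lower (14.3%, beside 7.78%). The part of these marker changes in the results below was not tested. Markers of other cell types (PTPRC, CD3E, EPCAM, KRT5, PECAM1, VWF, ALB and MYH7) summed to at most 1.70 CPM in any library, and CD3E and MYH7 had no count.

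With siLRWD1-5, 20 of the 39 genes fell and 3 rose, and 1 subunit gene in each of the 4 complexes fell by over 2-fold. These were SDHC, UQCR11, COX4I1 and ATP5D, with log2 fold changes between -1.18 and -1.06. The 20 genes are 51.3% of the members, beside 20.3% of all tested genes called lower in that comparison. The 3 that rose are 7.69%, beside 18.5% of all tested genes called higher. The 4 of 39 members that fell by over 2-fold stand beside 443 of the 13648 tested genes (3.25%). The median log2 fold change was -0.18 over the members and -0.006 over all tested genes. A gene was called when its adjusted p was under 0.05 in edgeR's quasi-likelihood test, adjusted by Benjamini-Hochberg over all tested genes. Members had a median of 111 CPM against 31.4 CPM for all tested genes, and 39 of 39 lay above that median, so they were counted more deeply than a typical gene. In such bulk RNA, fewer cells of a kind and less RNA per cell cannot be told apart. The count of lower genes was 15 to 21 when single libraries were left out. The count of higher genes was 1 without library 1 or 3 of the scrambled group, or library 1 or 2 of either siRNA group.

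With siLRWD1-6 the members moved less. In this group 7 of the 39 fell, which is 17.9% beside 7.78% of all tested genes, with 0 lower by over 2-fold beside 0.791%. In addition 1 rose, which is 2.56% beside 8.81%. The largest fall was that of COX6A1, at a log2 fold change of -0.37. The median log2 fold change was -0.12 over the members and -0.020 over all tested genes, and 34 of the 39 estimates were below 0. That count was 28 without scrambled library 2 and 30 with only libraries 1 and 3. The share below 0 over all tested genes was not taken. None of the 4 genes that fell by over 2-fold with siLRWD1-5 passed the threshold with siLRWD1-6. The comparisons share the same scrambled libraries. Leaving out scrambled library 1, siLRWD1-6 library 2 or siLRWD1-6 library 3 left 4 lower genes each, and leaving out siLRWD1-6 library 1 left 2. Leaving out siLRWD1-6 library 2 left 0 higher genes and leaving out scrambled library 2 gave 2. Without scrambled library 2 the median was -0.06.

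**Figure D1:**
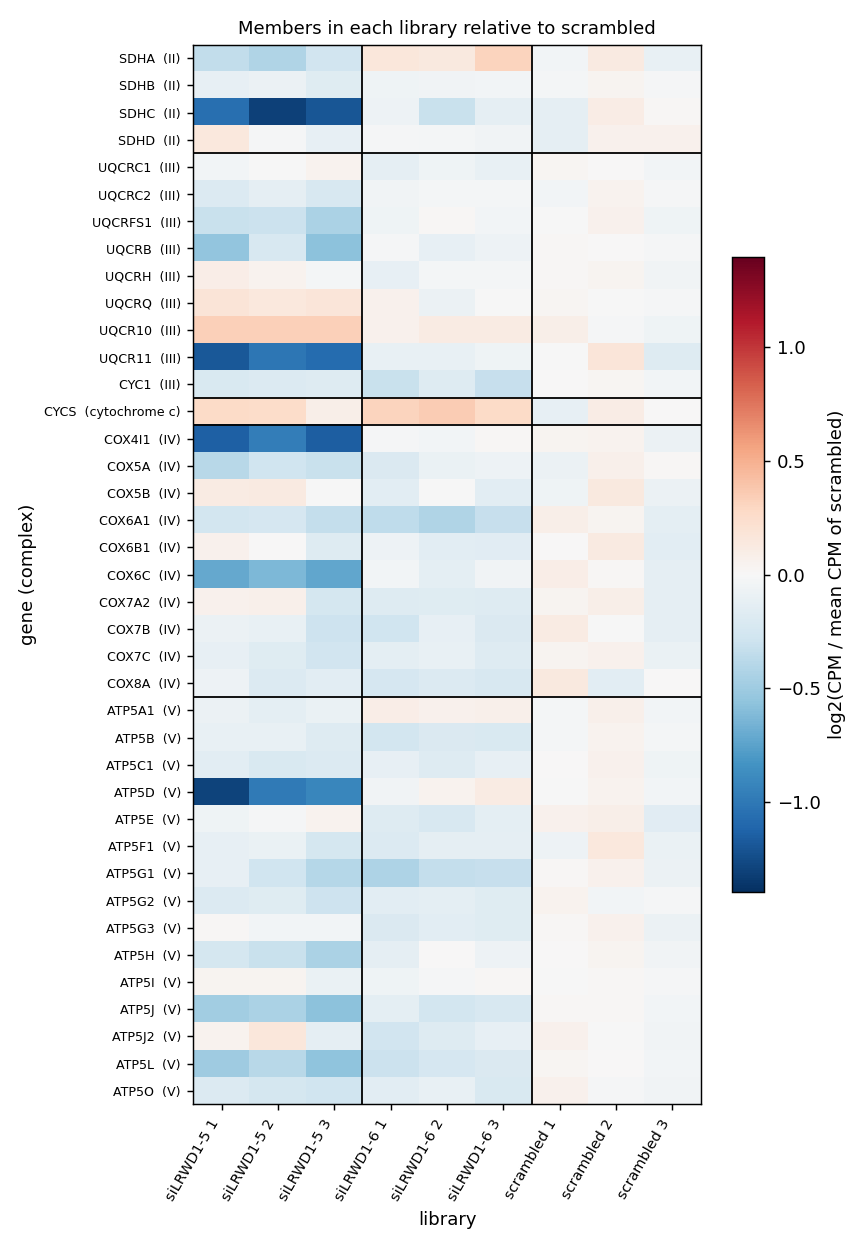
Level of each member (rows, grouped by complex) in each of the 9 libraries (columns), as log2 of its CPM over the mean CPM of the scrambled libraries, in which blue is lower and red is higher. The deep blue rows in the siLRWD1-5 libraries are SDHC, UQCR11, COX4I1 and ATP5D, with COX6C next, whereas these rows are pale in the siLRWD1-6 libraries.

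**Figure D2:**
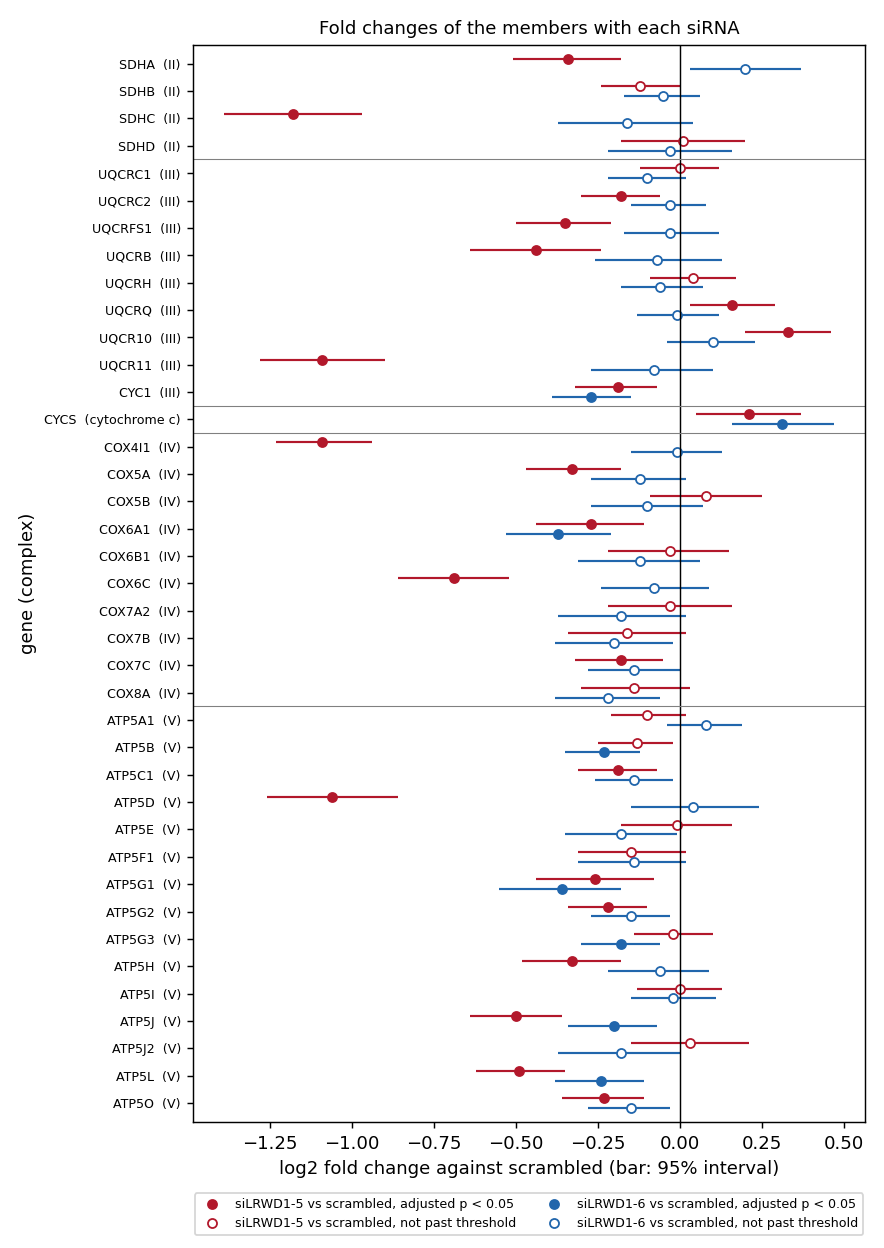
Log2 fold change of each member against scrambled siRNA with its 95% interval, for siLRWD1-5 (red, above) and siLRWD1-6 (blue, below), with filled points for adjusted p under 0.05. The red points reach -1.18, whereas the blue points lie between -0.37 and 0.31.

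Promoters of respiratory subunit genes are known for sites of NRF1, of ETS factors such as GABPA and of YY1, so the letters of these motifs were looked up in the RefSeq promoters (GRCh38.p14, 250 bases before to 50 after the annotated start). Of the 39 members, 31 matched an entry, 15 of them called lower with siLRWD1-5, and the others were SDHC, UQCRB, CYC1, COX6C, ATP5B, ATP5D, ATP5G3 and ATP5J2. The ETS letters CCGGAAG were present on either strand in 14 of 31 member promoters (45.2%) and in 10.7% of the 27305 promoters of the table. The NRF1 letters, GCGC followed by any base and TGCGC, were found in 9 (29%) and in 6.28% of all promoters. The YY1 letters AAGATGGCG were found in 3 (9.68%) and in 1.85%. All promoters of the table include those of genes not tested here, and the share over tested genes alone was not taken. The ETS letters occurred in 6 of the 15 promoters of genes called lower with siLRWD1-5 and in 8 of the 16 others. The NRF1 letters occurred in 5 of these 15 and 4 of these 16, and the YY1 letters in 1 of these 15 and 2 of these 16. No one of the 3 motifs contains another, and the NRF1 letters match both strands where they read the same on each.

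The 120 bases before the start are shown for 4 genes that fell with siLRWD1-5 (UQCR11, UQCRFS1, ATP5J and COX4I1), for UQCRQ, which rose, and for SDHD, which was not called. Each is written 5′ to 3′ along the gene with matches in capitals. They lie at chr19:1605463-1605582 (minus strand), chr19:29213152-29213271 (minus), chr21:25735055-25735174 (minus), chr16:85799575-85799694 (plus), chr5:132866522-132866641 (plus) and chr11:112086753-112086872 (plus) of GRCh38.p14.
UQCR11: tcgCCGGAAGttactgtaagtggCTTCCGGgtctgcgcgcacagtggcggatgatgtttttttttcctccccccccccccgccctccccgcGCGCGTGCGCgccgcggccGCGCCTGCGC
UQCRFS1: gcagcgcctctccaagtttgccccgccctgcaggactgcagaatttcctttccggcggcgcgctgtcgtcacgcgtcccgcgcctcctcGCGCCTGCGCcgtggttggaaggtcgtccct
ATP5J: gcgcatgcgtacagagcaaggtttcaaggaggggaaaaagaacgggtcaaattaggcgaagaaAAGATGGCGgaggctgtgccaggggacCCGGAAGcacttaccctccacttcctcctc
COX4I1: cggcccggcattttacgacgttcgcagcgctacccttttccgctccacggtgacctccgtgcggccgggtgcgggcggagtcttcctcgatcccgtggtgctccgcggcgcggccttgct
UQCRQ: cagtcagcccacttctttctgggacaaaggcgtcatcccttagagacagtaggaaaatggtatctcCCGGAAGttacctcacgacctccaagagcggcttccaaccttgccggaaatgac
SDHD: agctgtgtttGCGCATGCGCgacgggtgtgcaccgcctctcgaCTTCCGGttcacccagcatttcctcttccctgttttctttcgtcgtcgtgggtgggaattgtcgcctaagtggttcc
UQCR11 carries a pair of ETS matches and a pair of NRF1 matches in this stretch. COX4I1 has none in it, and its only match, to the ETS letters, begins at base 3 of the transcript.

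In complex II, SDHC and SDHA fell with siLRWD1-5. SDHC is an anchor subunit that holds the enzyme in the inner membrane and helps bind ubiquinone and haem. SDHC had 24.3, 20.3 and 21.9 CPM with siLRWD1-5, 48.1, 40.7 and 46.1 CPM with siLRWD1-6, against 46.2, 54.1 and 50.8 CPM with scrambled siRNA. Every siLRWD1-5 library lay below every other library, whereas the siLRWD1-6 and scrambled values overlapped. The fall with siLRWD1-5 was 2.27-fold (log2 fold change -1.18 ± 0.10, the second value being the standard error here and below, edgeR adjusted p = 4.68e-06). With siLRWD1-6 the log2 fold change was -0.16, with a 95% interval of -0.37 to 0.04. SDHA, the flavoprotein that oxidises succinate, had 94.6, 89.7 and 99.6 CPM with siLRWD1-5, 134, 132 and 149 CPM with siLRWD1-6, against 117, 131 and 112 CPM with scrambled siRNA. It was thus lowest in all siLRWD1-5 libraries and highest in all siLRWD1-6 libraries. The siLRWD1-5 change passed the threshold (1.27-fold lower, log2 fold change -0.34, edgeR adjusted p = 0.00433) and the siLRWD1-6 change did not (log2 fold change 0.20, 95% interval 0.03 to 0.37), although it did without scrambled library 2 (0.28) and with only libraries 1 and 3 (0.31). SDHB, the iron-sulphur subunit, averaged 136 ± 3.9, 143 ± 0.74 and 148 ± 3.2 CPM with siLRWD1-5, siLRWD1-6 and scrambled siRNA (SD, n = 3 each) and was not called. SDHD, the other membrane anchor and partner of SDHC, averaged 35.3 ± 3.2, 34.3 ± 0.33 and 35.1 ± 2.5 CPM in the same order and was not called either, with 95% intervals of -0.18 to 0.20 and -0.22 to 0.16 on the log2 scale. Of the anchor pair, SDHC was thus called lower with siLRWD1-5 and SDHD was not called, and the difference between these genes was not tested.

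In complex III, 2 of 9 members rose and 5 fell with siLRWD1-5. UQCR11, a small subunit at the edge of the complex, had 49.0, 55.2 and 52.9 CPM with siLRWD1-5, 104, 104 and 107 CPM with siLRWD1-6, against 111, 125 and 98.5 CPM with scrambled siRNA. Its siLRWD1-5 values did not overlap the others, and the fall was 2.13-fold (log2 fold change -1.09 ± 0.09, edgeR adjusted p = 3.41e-06). With siLRWD1-6 the log2 fold change was -0.08, with a 95% interval of -0.27 to 0.10. UQCR10, another small subunit, had 82.0, 82.0 and 81.7 CPM with siLRWD1-5, 67.9, 70.2 and 70.2 CPM with siLRWD1-6, against 68.5, 64.0 and 62.3 CPM with scrambled siRNA. It was the member that rose most with siLRWD1-5, by 1.26-fold (log2 fold change 0.33 ± 0.06, edgeR adjusted p = 0.00111), and its siLRWD1-5 values lay above all others. UQCRQ, a small subunit that contacts cytochrome b, averaged 96.0 ± 1.1 CPM with siLRWD1-5, 85.5 ± 4.1 CPM with siLRWD1-6 and 85.9 ± 1.2 CPM with scrambled siRNA (SD, n = 3 each). Its 1.12-fold rise with siLRWD1-5 was small (log2 fold change 0.16, edgeR adjusted p = 0.0451), and the call was lost on leaving out any single library except scrambled library 2, with log2 fold changes of 0.15 to 0.18.

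UQCRFS1, the Rieske iron-sulphur protein that passes electrons towards cytochrome c1, averaged 50.5 ± 2.6 CPM with siLRWD1-5, 63.3 ± 1.8 CPM with siLRWD1-6 and 64.5 ± 2.7 CPM with scrambled siRNA (SD, n = 3 each). UQCRB, which supports ubiquinone binding, had 41.4, 52.1 and 40.7 CPM with siLRWD1-5, 60.1, 56.1 and 57.8 CPM with siLRWD1-6, against 61.4, 60.9 and 59.9 CPM with scrambled siRNA. Both fell with siLRWD1-5, by 1.28-fold and 1.36-fold (edgeR adjusted p = 0.00156 and 0.00275), and siLRWD1-5 library 2 was the highest of its group for UQCRB. UQCRC2, a core scaffold subunit, fell 1.13-fold with siLRWD1-5 (log2 fold change -0.18), a call lost without siLRWD1-5 library 1 (-0.17) or siLRWD1-5 library 3 (-0.16). Its partner UQCRC1 averaged 146 ± 4.3, 137 ± 3.0 and 146 ± 3.1 CPM with siLRWD1-5, siLRWD1-6 and scrambled siRNA and was not called. CYC1, the haem protein cytochrome c1 that hands electrons to cytochrome c, was lower with either siRNA. CYC1 had 195, 198 and 199 CPM with siLRWD1-5, 182, 199 and 180 CPM with siLRWD1-6, against 226, 230 and 220 CPM with scrambled siRNA, so both siRNA groups lay below the scrambled libraries. The falls were 1.14-fold with siLRWD1-5 (log2 fold change -0.19) and 1.2-fold with siLRWD1-6 (log2 fold change -0.27, edgeR adjusted p = 0.00756), and the first was lost without siLRWD1-5 library 1 or 2 (both -0.19). UQCRH, the hinge protein between cytochrome c1 and cytochrome c, averaged 157 ± 6.9, 148 ± 5.0 and 153 ± 4.6 CPM in the siLRWD1-5, siLRWD1-6 and scrambled groups and was not called. Its near-identical copy UQCRHL took 31.3% to 33.1% of the reads of the pair in every library, so the split between them is uncertain, and UQCRHL was not called either.

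Cytochrome c, the soluble carrier between complexes III and IV and a trigger of apoptosis when released, stood out as the one member higher with either siRNA. CYCS had 205, 203 and 180 CPM with siLRWD1-5, 211, 217 and 205 CPM with siLRWD1-6, against 157, 182 and 170 CPM with scrambled siRNA. The siLRWD1-6 values lay above all scrambled values, whereas the lowest siLRWD1-5 library fell just under scrambled library 2. The rises were 1.16-fold with siLRWD1-5 (log2 fold change 0.21 ± 0.07, edgeR adjusted p = 0.0371) and 1.24-fold with siLRWD1-6 (log2 fold change 0.31 ± 0.07, edgeR adjusted p = 0.0118). The siLRWD1-5 call was lost without scrambled library 1 (0.16) or 3 (0.21), siLRWD1-5 library 1 (0.18) or 2 (0.19), or siLRWD1-6 library 1 or 2 (both 0.21). The siLRWD1-6 call was lost without siLRWD1-6 library 2 (0.29). Many processed copies of CYCS exist in the genome, and the copy CYCSP52 had at most 3 counts in a library.

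**Figure D3:**
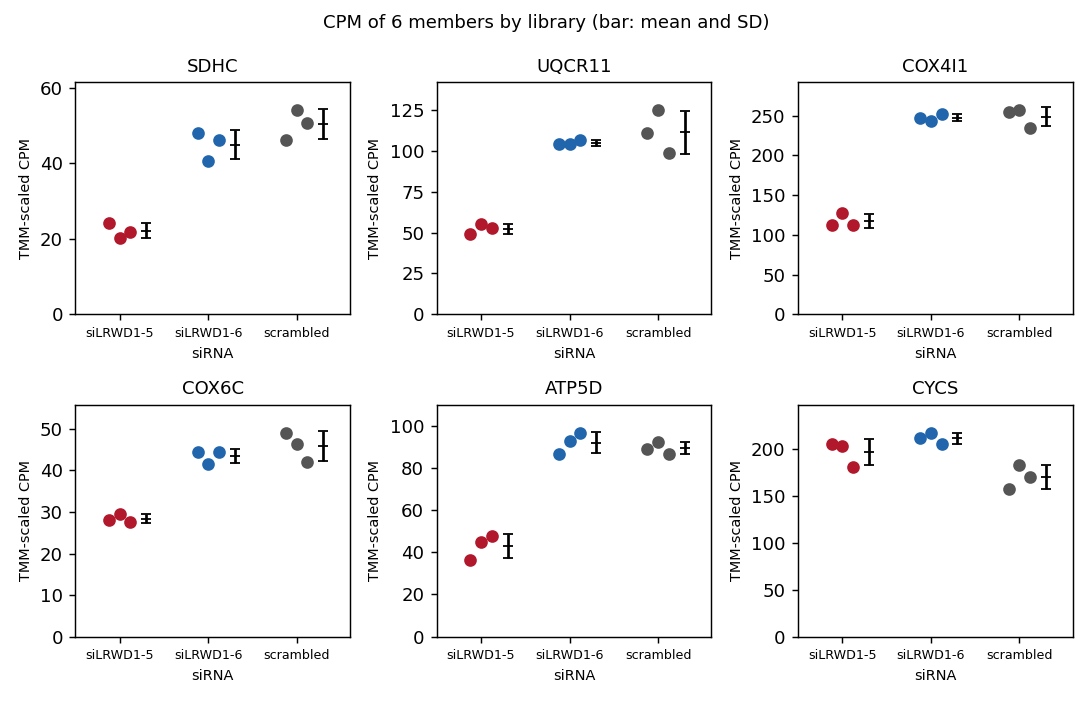
CPM in each library for SDHC, UQCR11, COX4I1, COX6C, ATP5D and CYCS (points), with the mean and SD of the 3 libraries of each siRNA group beside them. In the first 5 panels the siLRWD1-5 points lie below all others, and in the CYCS panel the siLRWD1-6 points lie above the scrambled points.

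In complex IV, COX4I1 and COX6C fell most with siLRWD1-5. COX4I1, the subunit 4 isoform of most tissues, joins early in assembly and carries the site where ATP slows the enzyme. It had 113, 127 and 112 CPM with siLRWD1-5, 247, 243 and 252 CPM with siLRWD1-6, against 255, 257 and 235 CPM with scrambled siRNA. The siLRWD1-5 libraries lay far below the others, which overlapped. The fall was 2.12-fold (log2 fold change -1.09 ± 0.07, edgeR adjusted p = 4.95e-07), and with siLRWD1-6 the log2 fold change was -0.01, with a 95% interval of -0.15 to 0.13. The alternative isoform gene COX4I2 had at most 1 count in a library and was not tested. COX6C, a small membrane-spanning subunit, had 28.0, 29.6 and 27.6 CPM with siLRWD1-5, 44.5, 41.6 and 44.4 CPM with siLRWD1-6, against 49.1, 46.4 and 42.1 CPM with scrambled siRNA. Its fall with siLRWD1-5 was 1.62-fold (log2 fold change -0.69 ± 0.08, edgeR adjusted p = 4.53e-05), again with no overlap.

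COX5A, a matrix-side subunit, averaged 121 ± 4.5 CPM with siLRWD1-5, 139 ± 6.8 CPM with siLRWD1-6 and 152 ± 8.3 CPM with scrambled siRNA (SD, n = 3 each) and fell 1.25-fold with siLRWD1-5 (edgeR adjusted p = 0.0021). COX6A1, which sits at the dimer interface of the enzyme, had 45.6, 46.4 and 43.4 CPM with siLRWD1-5, 42.6, 40.8 and 43.5 CPM with siLRWD1-6, against 58.0, 56.1 and 49.7 CPM with scrambled siRNA. Both siRNA groups lay below the scrambled libraries for this gene. It fell 1.21-fold with siLRWD1-5 (log2 fold change -0.27) and 1.29-fold with siLRWD1-6 (log2 fold change -0.37 ± 0.07, edgeR adjusted p = 0.00656). The siLRWD1-5 call was lost without scrambled library 1 (-0.23) or siLRWD1-5 library 3 (-0.25). COX7C fell 1.14-fold with siLRWD1-5 (log2 fold change -0.18, edgeR adjusted p = 0.0373). That call was lost on leaving out any single library other than scrambled library 2, scrambled library 3 and siLRWD1-5 library 1, with values of -0.18 to -0.15. COX5B, which binds zinc, COX6B1, which links the monomers on the outer face, and the small subunits COX7A2, COX7B and COX8A were not called with either siRNA. Their log2 fold changes ran from -0.16 to 0.08 with siLRWD1-5 and from -0.22 to -0.10 with siLRWD1-6. COX8A had 164, 151 and 155 CPM with siLRWD1-5, 146, 151 and 147 CPM with siLRWD1-6, against 189, 155 and 172 CPM with scrambled siRNA, and it passed the threshold without scrambled library 2, at -0.21 with siLRWD1-5 and -0.28 with siLRWD1-6. The tissue isoform genes COX6A2, COX6B2, COX7A1, COX7B2 and COX8C had at most 5 counts in any library.

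Complex V consists of a catalytic head, a central stalk that turns inside it, a peripheral stalk that holds the head still, and a ring of c subunits in the membrane. In the head and central stalk, ATP5D, the delta subunit at the foot of the central stalk, changed most. It had 36.4, 44.8 and 47.5 CPM with siLRWD1-5, 86.5, 92.7 and 96.7 CPM with siLRWD1-6, against 89.0, 92.2 and 86.7 CPM with scrambled siRNA. The siLRWD1-5 libraries were all below the others, and the fall was 2.09-fold (log2 fold change -1.06 ± 0.09, edgeR adjusted p = 7.05e-06). With siLRWD1-6 the log2 fold change was 0.04, with a 95% interval of -0.15 to 0.24. ATP5C1, the gamma subunit that forms the rotating shaft, fell 1.14-fold with siLRWD1-5 (log2 fold change -0.19), a call lost without siLRWD1-5 library 2 (-0.17) or siLRWD1-5 library 3 (-0.18). The catalytic beta subunit gene ATP5B averaged 1140 ± 34 CPM with siLRWD1-5, 1060 ± 18 CPM with siLRWD1-6 and 1240 ± 42 CPM with scrambled siRNA (SD, n = 3 each). It was called lower with siLRWD1-6 only (1.17-fold, log2 fold change -0.23, edgeR adjusted p = 0.0114), a call lost without siLRWD1-6 library 1 (-0.22), and its direct difference between the siRNAs did not pass (log2 fold change -0.10, 95% interval -0.21 to 0.01). The alpha subunit gene ATP5A1 averaged 447 ± 8.6, 504 ± 6.8 and 479 ± 20 CPM with siLRWD1-5, siLRWD1-6 and scrambled siRNA and was not called against scrambled. ATP5E, the epsilon subunit of the central stalk, had log2 fold changes of -0.01 with siLRWD1-5 and -0.18 with siLRWD1-6, neither called, and the siLRWD1-6 change passed without scrambled library 3 (-0.25). Its copy ATP5EP2 took 46.2% to 50.6% of the reads of the pair, so the level of either is uncertain, and ATP5EP2 was not called.

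Of the peripheral stalk genes, ATP5J, ATP5H and ATP5O were called lower with siLRWD1-5, and ATP5F1 was not called. ATP5J, the F6 coupling factor, had 68.5, 70.8 and 64.5 CPM with siLRWD1-5, 87.8, 80.6 and 82.4 CPM with siLRWD1-6, against 97.2, 97.7 and 93.8 CPM with scrambled siRNA. The 3 groups did not overlap, with the siLRWD1-6 libraries in between. ATP5J fell 1.42-fold with siLRWD1-5 (log2 fold change -0.50, edgeR adjusted p = 9.47e-05) and 1.15-fold with siLRWD1-6 (log2 fold change -0.20, edgeR adjusted p = 0.0453). The second call was lost on leaving out any single library except scrambled library 2 and siLRWD1-5 library 3, with values of -0.24 to -0.18. ATP5H, the d subunit, and ATP5O, the subunit that confers oligomycin sensitivity and caps the head, fell 1.26-fold and 1.18-fold with siLRWD1-5 (edgeR adjusted p = 0.00309 and 0.00742) and were not called with siLRWD1-6. ATP5F1, the b subunit, averaged 130 ± 7.9, 130 ± 3.7 and 144 ± 13 CPM in the siLRWD1-5, siLRWD1-6 and scrambled groups (SD, n = 3 each) and was not called, with log2 fold changes of -0.15 and -0.14. Its siLRWD1-5 interval was -0.31 to 0.02, and the difference between the stalk genes was not tested.

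Of the membrane subunits, ATP5L, the g subunit that helps dimers of the synthase form, had 92.0, 99.3 and 87.9 CPM with siLRWD1-5, 106, 111 and 113 CPM with siLRWD1-6, against 133, 131 and 127 CPM with scrambled siRNA. Its groups did not overlap either. It fell 1.4-fold with siLRWD1-5 (log2 fold change -0.49, edgeR adjusted p = 0.000117) and 1.19-fold with siLRWD1-6 (log2 fold change -0.24, edgeR adjusted p = 0.0201). The siLRWD1-6 call was lost without scrambled library 1 (-0.23) or any one siLRWD1-6 library (-0.25 to -0.22). The genes ATP5G1, ATP5G2 and ATP5G3 encode the same mature c subunit behind different import sequences, and each was measured on its own. ATP5G1 had 57.1, 51.0 and 46.8 CPM with siLRWD1-5, 45.9, 49.0 and 49.4 CPM with siLRWD1-6, against 62.8, 64.6 and 58.4 CPM with scrambled siRNA. Every siRNA library lay below every scrambled library, and ATP5G1 fell with either siRNA (1.2-fold and 1.29-fold, log2 fold changes -0.26 and -0.36). The first call was lost without scrambled library 1 (-0.25), siLRWD1-5 library 2 (-0.24) or siLRWD1-5 library 3 (-0.20), and the second without siLRWD1-6 library 1 (-0.33). ATP5G2 fell 1.16-fold with siLRWD1-5 (edgeR adjusted p = 0.00922) and had a log2 fold change of -0.15 with siLRWD1-6, which passed only without scrambled library 2 (-0.16). ATP5G3 averaged 269 ± 6.3, 242 ± 5.0 and 273 ± 13 CPM with siLRWD1-5, siLRWD1-6 and scrambled siRNA (SD, n = 3 each). It was called lower with siLRWD1-6 (log2 fold change -0.18) at an adjusted p that rounds to the threshold of 0.05, and leaving out any single library except scrambled library 3 ended that call, with values of -0.19 to -0.14. ATP5I and ATP5J2, the e and f subunits, were not called with either siRNA, with log2 fold changes of 0 and 0.03 with siLRWD1-5 and -0.02 and -0.18 with siLRWD1-6.

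Set directly against each other, siLRWD1-6 and siLRWD1-5 differed in members in both directions. Relative to siLRWD1-5, 14 were higher with siLRWD1-6 (35.9%, beside 22.4% of all tested genes) and 3 were lower (7.69%, beside 20.9%). Of the 14, 4 were higher by over 2-fold, beside 3.69% of all tested genes. The median log2 difference was 0.04 over the members and -0.006 over all tested genes. ATP5D, COX4I1, SDHC and UQCR11 were 2.15-fold, 2.10-fold, 2.03-fold and 2.01-fold higher with siLRWD1-6 than with siLRWD1-5 (edgeR adjusted p from 4.01e-07 to 1.04e-05). COX6C was 1.53-fold and SDHA 1.46-fold higher, and UQCRB, UQCRFS1, ATP5J, ATP5H and ATP5L were 1.18-fold to 1.30-fold higher. COX5A, UQCRC2 and ATP5A1 were higher by log2 differences of 0.20, 0.15 and 0.17. Genes lower with siLRWD1-6 were UQCR10 (1.18-fold), UQCRQ (1.12-fold) and ATP5G3 (1.12-fold). For CYCS the difference did not pass, at 0.10 on the log2 scale with a 95% interval of -0.05 to 0.26, and neither did those of CYC1 (-0.20 to 0.05), COX6A1 (-0.26 to 0.07) and ATP5G1 (-0.29 to 0.08).

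The smaller differences between the siRNAs depended on single libraries. The ATP5A1 call was lost without siLRWD1-5 library 2 (0.16) or siLRWD1-6 library 1 (0.17), and the COX5A call without siLRWD1-5 library 1 (0.17), siLRWD1-5 library 3 (0.21), siLRWD1-6 library 2 (0.19) or siLRWD1-6 library 3 (0.19). The UQCRC2 call was lost without scrambled library 1, siLRWD1-5 library 1, siLRWD1-5 library 3 or any siLRWD1-6 library (0.13 to 0.16). UQCRQ lost it without any siLRWD1-5 library, siLRWD1-6 library 2 or siLRWD1-6 library 3 (-0.17 to -0.13), and ATP5G3 without scrambled library 1 or any siRNA library (-0.17 to -0.14). The count of lower members was 1 without siLRWD1-5 library 1, siLRWD1-5 library 2, siLRWD1-6 library 2 or siLRWD1-6 library 3, and 5 without scrambled library 2. COX5B (-0.17) and ATP5J2 (-0.20) passed without scrambled library 2, and ATP5J2 (-0.28) and COX7A2 (-0.24) without siLRWD1-5 library 3. With no scaling beyond library size, 9 members were lower and 2478 of all genes were called higher and 3609 lower, beside 3063 and 2856 with TMM.

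**Figure D4:**
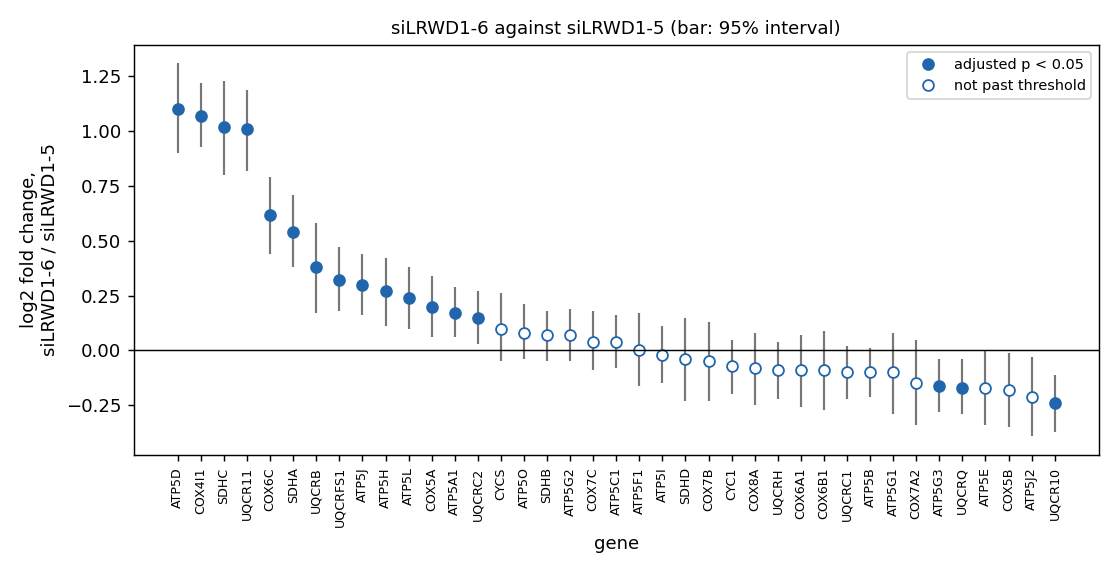
Log2 fold change of siLRWD1-6 over siLRWD1-5 for each member, in falling order, with its 95% interval and with filled points for adjusted p under 0.05. The first 4 genes, ATP5D, COX4I1, SDHC and UQCR11, lie between 1.01 and 1.10, and the order ends with UQCR10 at -0.24.

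Added up within a complex, member transcripts of complex II came to 288.5 ± 5.61 CPM with siLRWD1-5, 360.3 ± 11.6 CPM with siLRWD1-6 and 353.9 ± 17.0 CPM with scrambled siRNA (SD, n = 3 each). The siLRWD1-5 sum was 81.5% of scrambled, and only that group stood clear of it. Complex IV came to 1035 ± 48.5 CPM with siLRWD1-5, 1162 ± 10.8 CPM with siLRWD1-6 and 1274 ± 57.8 CPM with scrambled siRNA, which is 81.2% and 91.2% of scrambled. For complex III the sums were 90.1% and 94.3% of scrambled with siLRWD1-5 and siLRWD1-6, and for complex V they were 88.8% and 90.4%. In complexes III, IV and V every siRNA library had a lower sum than every scrambled library. No test was run on these sums, which are weighted towards abundant transcripts such as ATP5B. All 39 members together came to 5607 ± 154 CPM with siLRWD1-5, 5926 ± 52.7 CPM with siLRWD1-6 and 6385 ± 207 CPM with scrambled siRNA.

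**Figure D5:**
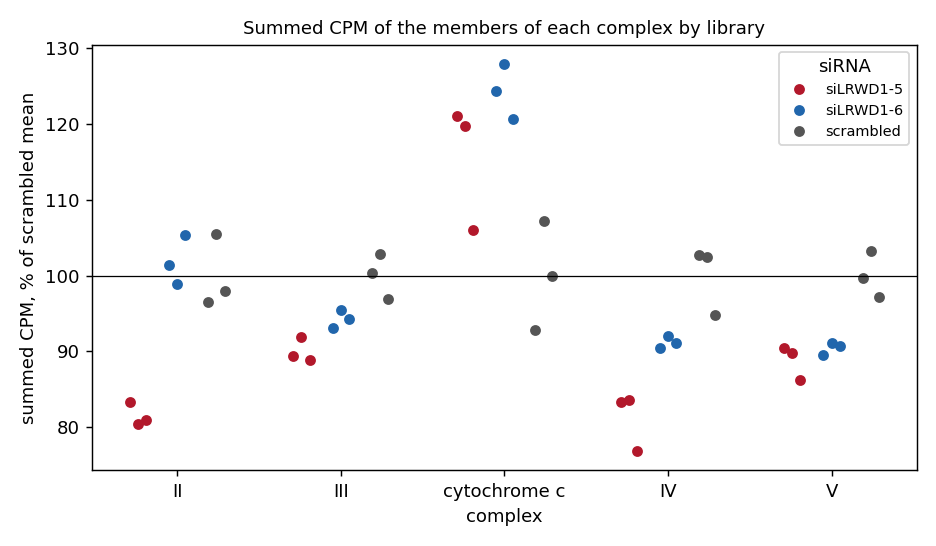
Summed CPM of the members of each complex in each library, as a percentage of the scrambled mean, for siLRWD1-5 (red), siLRWD1-6 (blue) and scrambled siRNA (grey), on an axis that does not start at 0. The siLRWD1-5 sums of complexes II and IV lie lowest, at means of 81.5% and 81.2%, and cytochrome c lies above 100% with either siRNA.

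Some genes that help to build these complexes were called as well. Of 35 tested assembly factors of complexes II to V, 10 fell and 2 rose with siLRWD1-5 (median log2 fold change -0.08), which is 28.6% and 5.71%, beside 20.3% and 18.5% of all tested genes. With siLRWD1-6, 5 fell and 0 rose (median -0.05), which is 14.3% lower, beside 7.78% of all tested genes. LYRM7, which in complex III assembly holds the Rieske protein UQCRFS1 before its insertion, had 13.9, 15.5 and 17.4 CPM with siLRWD1-5, 36.0, 38.6 and 33.2 CPM with siLRWD1-6, against 44.2, 46.0 and 46.2 CPM with scrambled siRNA. The 3 groups were separate, and the fall with siLRWD1-5 was 2.93-fold (edgeR adjusted p = 5.78e-07). LYRM7 was also called lower with siLRWD1-6, by 1.26-fold (edgeR adjusted p = 0.0251). CMC2, a factor for complex IV, had 7.37, 8.67 and 5.11 CPM with siLRWD1-5, 41.2, 40.2 and 37.9 CPM with siLRWD1-6, against 43.2, 42.5 and 36.6 CPM with scrambled siRNA. LRPPRC, which keeps mitochondrial mRNAs stable, averaged 212 ± 9.6 CPM with siLRWD1-5 and was 1.70-fold lower than with scrambled siRNA (edgeR adjusted p = 3.09e-06). These 3 genes were also higher with siLRWD1-6 than with siLRWD1-5, by 2.32-fold, 5.61-fold and 1.86-fold for LYRM7, CMC2 and LRPPRC (edgeR adjusted p from 3.15e-07 to 2.59e-06). With siLRWD1-6, BCS1L, which inserts the Rieske protein, and the complex IV factors COX14 and CCDC56 were 1.26-fold, 1.42-fold and 1.43-fold lower than with scrambled siRNA. With siLRWD1-5, BCS1L was also lower, by 1.19-fold (edgeR adjusted p = 0.0315), COX14 was 1.41-fold higher (edgeR adjusted p = 0.00789) and CCDC56 was not called.

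Among 13 tested regulators of respiratory genes, 5 fell and 3 rose with siLRWD1-5, which is 38.5% and 23.1%, beside 20.3% and 18.5% of all tested genes. With siLRWD1-6, 2 fell and 1 rose, which is 15.4% and 7.69%, beside 7.78% and 8.81%. TFAM, which packages mitochondrial DNA and starts its transcription, had 28.7, 29.8 and 26.5 CPM with siLRWD1-5, 60, 61.8 and 57.5 CPM with siLRWD1-6, against 55.1, 53.6 and 59.7 CPM with scrambled siRNA. The siLRWD1-5 libraries stood apart, at a 1.98-fold fall (edgeR adjusted p = 2.66e-06). YY1, one of the factors whose letters were looked up above, averaged 80 ± 0.84, 109 ± 3.7 and 108 ± 6.7 CPM with siLRWD1-5, siLRWD1-6 and scrambled siRNA (SD, n = 3 each) and fell 1.35-fold with siLRWD1-5 (edgeR adjusted p = 0.000256). TFB2M, the partner of TFAM at mitochondrial promoters, was 1.22-fold higher with siLRWD1-5 and 1.49-fold higher with siLRWD1-6 than with scrambled siRNA (edgeR adjusted p = 0.0406 and 0.00265). ATPIF1, the inhibitor that stops the ATP synthase from running backwards, had 149, 150 and 135 CPM with siLRWD1-5, 102, 107 and 101 CPM with siLRWD1-6, against 156, 136 and 140 CPM with scrambled siRNA. It was 1.39-fold lower with siLRWD1-6 than with scrambled siRNA (edgeR adjusted p = 0.000975), and the siLRWD1-5 and scrambled values overlapped. ATPIF1 thus differed between the siRNAs in the opposite direction to ATP5D, at 1.4-fold lower with siLRWD1-6 than with siLRWD1-5 (edgeR adjusted p = 0.000226).

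Counts for other mitochondrial gene groups are set beside the shares of all tested genes. Of 37 nuclear complex I subunit genes, 9 were lower and 0 higher with siLRWD1-5 (median log2 fold change -0.02), and 8 were lower and 1 higher with siLRWD1-6 (median -0.12). NDUFB10 was the complex I subunit that fell by over 2-fold with siLRWD1-5, at 2.58-fold (edgeR adjusted p = 1.74e-07). The complex I genes called lower with siLRWD1-5 are 24.3%, near the 20.3% of all tested genes. With siLRWD1-6 they are 21.6%, beside 7.78%. Complex I genes called higher are 0% with siLRWD1-5 and 2.7% with siLRWD1-6, beside 18.5% and 8.81% of all tested genes. The members of complexes II to V stood at 51.3% and 17.9% lower and at 7.69% and 2.56% higher. The difference between the lists was not tested. Of 14 tricarboxylic acid cycle genes, 5 fell and 1 rose with siLRWD1-5, with MDH2, the malate dehydrogenase, 1.49-fold lower, and 2 fell and 1 rose with siLRWD1-6, with OGDH, a subunit of 2-oxoglutarate dehydrogenase, 1.90-fold lower. OGDH was called lower with siLRWD1-5 as well, by 1.29-fold (edgeR adjusted p = 0.000718), and MDH2 was not called with siLRWD1-6. The cycle genes called lower are 35.7% and 14.3% with siLRWD1-5 and siLRWD1-6, beside 20.3% and 7.78% of all tested genes, and those called higher are 7.14% with either, beside 18.5% and 8.81%. Of 6 tested carriers and porins, 1 fell with each siRNA, SLC25A3 (the phosphate carrier) with siLRWD1-5 and SLC25A5 (an adenine nucleotide carrier) with siLRWD1-6, which is 16.7% in each case, beside 20.3% and 7.78% of all tested genes. Of 11 tested further subunits, copies and isoforms, 0 were called with siLRWD1-5 by edgeR, DESeq2 or limma-voom, and 1 had an unadjusted edgeR p under 0.05. Over all tested genes edgeR called 20.3% lower and 18.5% higher. In the same list ATPIF1 and C14orf2, a small ATP synthase subunit, were lower and the SDHA copy SDHAP1 was higher with siLRWD1-6 than with scrambled siRNA. That is 18.2% lower and 9.09% higher, beside 7.78% and 8.81% of all tested genes. SDHAP1 had 63 to 127 counts per library and SDHA 1211 to 1918.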

How the data were processed

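RNA sequencing libraries of 9 A673 samples were compared, 3 per siRNA group. The authors deposited raw read counts per gene symbol. The submitters' processing notes name HTSeq 0.5.4p3, TopHat2 2.0.10, bcl2fastq 1.8.4 and build hg19. Annotation, counting mode and strand were not stated in any source at hand, so reads of overlapping antisense genes and of near-identical copies are uncertain.

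From these counts, genes passing filterByExpr were kept (13648 of 23368, with at least 99.92% of the counts of each library) and scaled by TMM. They were tested in edgeR 4.0.16 (R 4.3.3) with a robust quasi-likelihood fit on the 9 libraries, with siRNA group as the sole covariate. P-values were adjusted by Benjamini-Hochberg over all tested genes, with a threshold of 0.05. Standard errors came from the F statistic and 95% intervals from its degrees of freedom. The fit was tested on counts simulated with known changes in genes of all levels. Each size of change was given to 58 to 78 of the 13509 to 13525 genes fitted in a comparison. It recovered 46.7% to 54.1% of changes of 0.5 on the log2 scale, 76.1% to 82.8% of changes of 1 and 91% to 100% of changes of 2. Of its calls, 5.06% to 8.43% were unchanged genes. In the data far more genes were called, and the members were counted more deeply than a typical gene. These shares therefore do not give the recovery among the members. Small changes can still go uncalled. The members and gene lists were chosen with earlier results of these data known. All 39 members are named. From other lists, up to 3 genes per comparison with the smallest adjusted p at a mean of at least 5 CPM could be named, plus copies and tissue isoforms. GABPA and NRF1 were added as factors named with the promoter motifs.

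Members were matched to RefSeq by current (24) or older symbol (15) with Python 3.11.15 and pandas 2.3.3. Alternatives were RLE factors, no scaling beyond library size, DESeq2 1.42.0, limma-voom (limma 3.58.1), no count filter, a minimum of 1 CPM in 3 libraries, a replicate block, only the groups compared, only libraries 1 and 3, and leaving out each library.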

Additional observations from a re-analysis of the deposited data

How the results depend on the processing

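Leaving out single libraries gave 15 to 21 lower and 1 to 3 higher members with siLRWD1-5, 2 to 8 lower and 0 to 2 higher with siLRWD1-6, and 1 to 5 lower and 12 to 14 higher with siLRWD1-6 than with siLRWD1-5. Under every alternative run, 14 of the 20 genes lower with siLRWD1-5, 2 of the 7 lower with siLRWD1-6 (CYC1 and COX6A1) and 11 of the 14 higher with siLRWD1-6 than with siLRWD1-5 were called in the same direction. The 14 include SDHC, UQCR11, COX4I1, COX6C and ATP5D. With only the groups compared, 1 member was higher with siLRWD1-5 and 6 were lower with siLRWD1-6 than with siLRWD1-5. With only libraries 1 and 3, 2 were higher with siLRWD1-6. For siLRWD1-6 against siLRWD1-5, 9 were lower with no scaling beyond library size, which moved the median of all genes to -0.07, and 1 was lower with no count filter. The cause was not tested. Over all genes, siLRWD1-6 had 2115 higher and 1838 lower calls without scrambled replicate 2, 1933 and 1646 with only libraries 1 and 3, 702 and 546 without siLRWD1-6 replicate 1, 763 and 606 without siLRWD1-6 replicate 2, and 613 and 696 lower calls without siLRWD1-6 replicate 3 and with only the groups compared, beside 1203 higher and 1062 lower in the fit reported.

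Whether the numbers of the labels pair the libraries is not settled by the data. Same-numbered libraries of different groups deviated together at correlations of 0.05 to 0.37, above 0.1 in 7 of 9 pairs. For 8 of 9 libraries, the mean correlation with libraries of their own number in the other groups exceeded that for either other number. With the replicate number as a block, 20 members were lower and 3 higher with siLRWD1-5, 8 lower and 1 higher with siLRWD1-6, and 4 lower and 14 higher with siLRWD1-6 than with siLRWD1-5. The block added COX8A with siLRWD1-6 (-0.22) and COX5B between the siRNAs (-0.18).

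Log2 fold changes near 0 changed sign in some alternatives, and none of these values passed the threshold. With siLRWD1-5, UQCRC1 was at 0 to 0.05 (0.01 with RLE factors, DESeq2, the 1 CPM filter and libraries 1 and 3, 0.05 with no scaling) and ATP5I at 0, 0.01 (RLE factors, DESeq2) and 0.05 (no scaling). With no scaling, COX6B1 and COX7A2 were at 0.02, ATP5E at 0.04 and ATP5G3 at 0.03, and with libraries 1 and 3 COX6B1 was at 0.02, ATP5E at 0.04, ATP5G3 at 0.03 and ATP5J2 at -0.03. With siLRWD1-6, UQCRQ was at 0 (RLE factors, DESeq2, groups compared), 0.01 (either filter) and 0.04 (libraries 1 and 3), COX4I1 at 0 (1 CPM filter) and 0.03, SDHD at 0.01 and UQCR11 at 0.02 (libraries 1 and 3). For siLRWD1-6 against siLRWD1-5 with no scaling, SDHB and ATP5G2 were at 0, COX7C at -0.03, ATP5C1 at -0.02 and ATP5F1 at -0.07. Leaving out single libraries gave, with siLRWD1-5, SDHD -0.06 to 0.07, UQCRC1 -0.02 to 0.02, COX6B1 -0.1 to 0.03, COX7A2 -0.09 to 0.07, ATP5E -0.09 to 0.03, ATP5G3 -0.06 to 0.01, ATP5I -0.02 to 0.04 and ATP5J2 -0.03 to 0.1. With siLRWD1-6 it gave SDHD -0.09 to 0.01, UQCRC2 -0.05 to 0, UQCRFS1 -0.06 to 0.01, UQCRQ -0.04 to 0.03, UQCR11 -0.17 to 0.01, COX4I1 -0.05 to 0.02 and ATP5I -0.03 to 0. Between the siRNAs it gave SDHD -0.1 to 0.03, ATP5F1 -0.04 to 0.04 and ATP5I -0.06 to 0.01.

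Members had 270 to 19281 counts per library. With 3 libraries a group, the least significant calls sat close to the threshold and depended on single libraries. The mitochondrially encoded subunits were not analysed here, and RNA levels say nothing of protein or activity.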
